A study of Mus musculus with 8 samples.

Results

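Epcam, Cdh1 and 8 junction genes were followed across 8 RNA sequencing libraries of sorted mouse lung cells, as a check on the epithelial gate by which the cells were chosen. The 10 genes were taken by symbol: Epcam, the cadherin gene Cdh1, the claudin genes Cldn3, Cldn4, Cldn7 and Cldn18, the other tight junction genes Tjp1, Ocln and F11r, and the desmosome gene Dsp. Each matched 1 Ensembl gene of the 43432 in the deposited count table, and 10 of 10 were among the 14906 genes that passed the filter on low counts. All libraries came from EpCAM+CD45- lung cells of 14-week-old C57BL/6J mice, so cells with EpCAM protein at the surface were kept and CD45+ leukocytes were left out. C/C mice were homozygous (n = 2) and C/+ mice heterozygous (n = 3) for ChiaRed, a reporter allele of the gene for acidic mammalian chitinase (AMCase), Chia1. In both, the ChiaRed+ part of the gate was sequenced. WT mice (n = 3) had no ChiaRed and gave the whole gate. WT libraries therefore differed from the others in the sort as well as in genotype, and these cannot be told apart. The labels do not say that libraries of a group came from separate animals, so the spread that each p-value is set against may be technical.

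Total counts were 46478577 and 41950581 in C/C, 17057216 to 30190458 in C/+ and 20232091 to 52319957 in WT. Chia1 stood at 1.45 and 0.365 CPM in C/C, at 223 to 341 CPM in C/+ and at 267 to 454 CPM in WT. CPM is the usual depth-normalised count, the count divided by the library total in units of 1e6, after scaling each library by its TMM factor. Ptprc, which encodes CD45, stood at 0.252 and 0.182 CPM in C/C, 0.118 to 1.80 CPM in C/+ and 0.298 to 1.5 CPM in WT, and the summed level of the 12 leukocyte markers was 4.06 to 14.7 CPM over all 8 libraries, of which Csf1r, a macrophage receptor gene, took 3.29 to 6.46 CPM. The sexes were not balanced across the groups: both C/C libraries, C/+ 2, C/+ 3 and WT 1 had Xist at 289 to 657 CPM, and C/+ 1, WT 2 and WT 3 had the Y-linked gene Ddx3y at 49.8 to 53.7 CPM. Both C/C libraries were thus read as female, so sex and group are partly confounded. Mitochondrial genes took 4.92% and 6.67% of counts in C/C, 3.93% to 6.40% in C/+ and 2.90% to 3.31% in WT, and the part of this difference in the results below was not tested.

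Epithelial sheets are held together by 3 kinds of contact. Adherens junctions are built on E-cadherin, tight junctions seal the space between cells with claudins, occludin and JAM proteins tied to ZO scaffolds, and desmosomes anchor keratin filaments through desmoplakin. In the alveolus these contacts hold back fluid from the airspace, and claudin-18 in its lung form is known as a major alveolar claudin. EpCAM is a surface glycoprotein of most epithelia and is widely used to sort lung epithelium.

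The promoters of 3 of the genes are shown because the results turn on them: Epcam is the sorted antigen, and Cldn3 and Cldn4 are genome neighbours at the opposite ends of the range of levels. Each is RefSeq sequence on GRCm38.p6, from 250 bases before to 50 bases after the gene's start, read 5′ to 3′ along the gene. Capitals mark 2 motifs, CAGGTG with its reverse complement CACCTG, an E-box that the Snail and Zeb repressors bind, and ACCGGT, the centre of the consensus of grainyhead-like factors. The motifs do not overlap each other in these windows.
Epcam, chr17:87635729-87636028, plus strand: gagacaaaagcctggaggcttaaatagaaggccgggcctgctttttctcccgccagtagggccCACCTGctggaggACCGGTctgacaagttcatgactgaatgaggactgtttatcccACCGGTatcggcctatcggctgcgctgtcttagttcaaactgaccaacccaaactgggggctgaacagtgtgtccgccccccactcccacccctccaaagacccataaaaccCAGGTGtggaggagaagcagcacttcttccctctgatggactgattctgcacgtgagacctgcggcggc
Cldn3, chr5:134985964-134986263, plus strand: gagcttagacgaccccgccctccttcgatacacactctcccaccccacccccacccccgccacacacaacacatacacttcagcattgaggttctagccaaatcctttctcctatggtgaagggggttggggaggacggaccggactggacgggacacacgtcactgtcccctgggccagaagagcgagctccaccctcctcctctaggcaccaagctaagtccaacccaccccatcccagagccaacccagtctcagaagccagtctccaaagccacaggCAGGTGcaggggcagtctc
Cldn4, chr5:134946885-134947184, minus strand: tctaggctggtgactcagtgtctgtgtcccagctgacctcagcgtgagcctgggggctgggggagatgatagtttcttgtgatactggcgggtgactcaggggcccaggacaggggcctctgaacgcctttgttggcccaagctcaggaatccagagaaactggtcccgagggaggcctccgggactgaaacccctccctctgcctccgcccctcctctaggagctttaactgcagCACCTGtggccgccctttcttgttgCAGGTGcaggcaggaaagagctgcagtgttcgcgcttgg
The Epcam window held 2 E-boxes and 2 copies of ACCGGT, the Cldn3 window 1 E-box and the Cldn4 window 2 E-boxes. RefSeq windows were at hand for 9 of the 10 genes, the exception being Cdh1, with 12 windows in all because some genes have more than 1 start. The E-box was in 8 of these 12 windows, belonging to 7 genes (Cldn3, Cldn4, Cldn7, Dsp, Epcam, F11r and Ocln), and in 20.2% of the 32851 windows of all genes. The 2 Ocln windows overlap and share 1 E-box, which is thus counted in both. ACCGGT was in the Epcam window alone among the 12, and in 2.33% of all windows. These matches describe letters and do not show that a factor binds.

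The level of the sorted antigen's own gene was close to even across the groups. Epcam (ENSMUSG00000045394, GRCm38 chromosome 17, 87635979 to 87651129) stood at 177 and 184 CPM in C/C, at 184, 157 and 202 CPM in C/+ and at 157, 181 and 177 CPM in WT. The 3 groups overlapped, and the highest library (C/+ 3) was 1.28 times the lowest (WT 1). The log2 fold change (log2FC) was 0.08 for C/+ against WT (95% interval -0.17 to 0.32), 0.07 for C/C against WT (-0.20 to 0.34) and -0.01 for C/C against C/+ (-0.28 to 0.27). None of the 3 was called by edgeR's quasi-likelihood test, where called means a Benjamini-Hochberg adjusted p under 0.05 over all 14906 genes (smallest adjusted p = 0.741). The interval for C/C against C/+ runs from 0.825-fold to 1.2-fold, so a larger difference in the level of Epcam lies outside it. In these bulk samples fewer cells of a type and less RNA per cell cannot be told apart.

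By the same test 0 of the 10 genes were called in any of the 3 comparisons. Of all tested genes 3.92% were called for C/+ against WT. For C/C the share was 2.98% when set against WT, whereas 7.08% were called when it was set against C/+. At an unadjusted p under 0.05 the counts among the 10 were 3, 2 and 4 in that order, against 20.1%, 22.1% and 20.9% of all tested genes. DESeq2's Wald test called 2, 1 and 1 of the 10, against 8.47%, 9.86% and 10.8% of all genes. With the sex of the mouse as a covariate edgeR called 2, 1 and 1, against 11.4%, 9.04% and 8.05%, and without the low-count filter 0, 1 and 1, against 5.72%, 6.41% and 7.1% of all genes. The median log2FC of the 10 was -0.15, -0.08 and 0.11, and that of all tested genes 0.01, -0.03 and -0.01. Of the 10, the log2FC of 8, 6 and 4 was below 0 in the same order. Their summed level was 2975 and 3050 CPM in C/C, 2625 to 2763 CPM in C/+ and 2914 to 3118 CPM in WT. All C/+ libraries lay below all others in this sum, to which Cldn18, Cdh1 and Cldn3 gave the most. The sum was not tested. The median size of the log2FC, without its sign, was 0.18, 0.18 and 0.17 for the 10 and 0.21, 0.25 and 0.21 for all tested genes. Libraries of the compared groups did not overlap for 3 of 10 genes in C/+ against WT (24.8% of all genes), with 1 above and 2 below (14.1% and 10.7%). The same held for 5 of 10 in C/C against WT (43.3%), with 2 above and 3 below (20.8% and 22.6%), and for 5 of 10 in C/C against C/+ (38.3%), with 3 above and 2 below (18.1% and 20.2%). These shares are close to those of all genes, with few genes behind each.

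**Figure D1:**
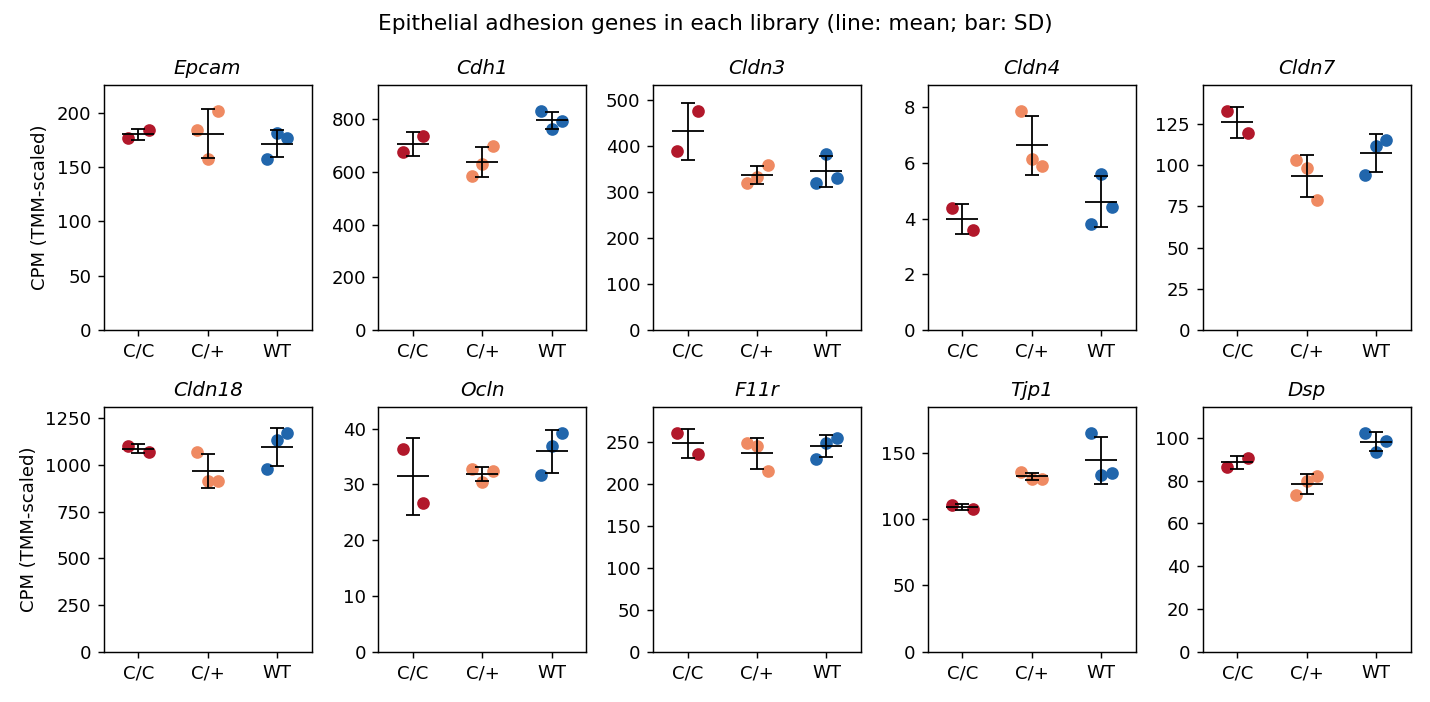
Each panel gives 1 gene, with TMM-scaled CPM from 0 on the vertical axis and the groups C/C (2 libraries), C/+ (3) and WT (3) along the horizontal axis. Points are libraries, lines group means and bars the SD. For Epcam and F11r the 3 groups overlap, for Cdh1 and Dsp the mean is lowest in C/+, and for Tjp1 it is lowest in C/C.

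Cdh1 encodes E-cadherin, the adhesion molecule of epithelial adherens junctions (ENSMUSG00000000303, chromosome 8, 106603351 to 106670246). It stood at 676 and 738 CPM in C/C, at 585, 629.6 and 697 CPM in C/+ and at 831, 765 and 792 CPM in WT. All C/+ and C/C libraries lay below all WT libraries, and C/C overlapped C/+. Means were 637 ± 56.4 CPM in C/+ and 796 ± 33.1 CPM in WT (SD, n = 3 each). The log2FC of C/+ against WT was -0.32 (SE 0.10), which edgeR did not call (adjusted p = 0.111). It was called by DESeq2 (adjusted p = 0.0161) and with the sex of the mouse as a covariate in edgeR (adjusted p = 0.0284), within a range of 0.0161 to 0.28 over 15 alternatives. For C/C against WT the log2FC was -0.17 (interval -0.42 to 0.08) and for C/C against C/+ 0.15 (-0.10 to 0.40).

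Dsp encodes desmoplakin, the plaque protein that ties desmosomes to keratin filaments (ENSMUSG00000054889, chromosome 13, 38151294 to 38198577). Its values were ordered like those of Cdh1, at 86.4 and 90.5 CPM in C/C, 73.0, 79.8 and 82.0 CPM in C/+ and 102, 93.6 and 98.5 CPM in WT. The 3 groups did not overlap: all C/+ libraries were lowest and all WT libraries highest. The log2FC of C/+ against WT was -0.33 (SE 0.09, edgeR adjusted p = 0.0632). DESeq2 called it (adjusted p = 0.0127), as did edgeR with the sex covariate (adjusted p = 0.0203), within a range of 0.0127 to 0.199 over 15 alternatives. The other log2FC were -0.15 for C/C against WT (interval -0.36 to 0.06) and 0.18 for C/C against C/+ (-0.03 to 0.39).

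Claudins line the tight junction strands and set which ions pass between cells. Cldn18 (ENSMUSG00000032473, chromosome 9, 99689461 to 99717267) stood at 1103 and 1069 CPM in C/C, 1071, 915 and 915 CPM in C/+ and 978, 1131 and 1171 CPM in WT. Its groups overlapped in each comparison, with log2FC of -0.18 for C/+ against WT (interval -0.42 to 0.07), -0.01 for C/C against WT (-0.28 to 0.26) and 0.17 for C/C against C/+ (-0.11 to 0.44). The counts are per gene, so its lung and stomach forms were not separated. It was also on the alveolar type 1 marker list, whose summed CPM was 3526 and 3166 in C/C, 2674 to 3735 in C/+ and 2966 to 3876 in WT. Most of each sum was Cldn18 itself and Ager, at 1312 to 2056 CPM over all 8 libraries. The log2FC was below 0 for 8 of the list's genes in C/C against WT, 7 in C/+ against WT and 3 in C/C against C/+. Of that list's 8 genes edgeR called 1 lower in C/+ against WT (0.503% of all genes) and 1 lower in C/C against WT (1.36%). In C/C against C/+ it called 1 higher and 1 lower (1.75% and 5.33%).

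Cldn3, a sealing claudin of alveolar type 2 cells (ENSMUSG00000070473, chromosome 5, 134986214 to 134987472), stood at 388 and 476 CPM in C/C, 320.4, 332 and 358 CPM in C/+ and 320.4, 383 and 330.4 CPM in WT. Both C/C libraries lay above all others, and C/+ overlapped WT. Its log2FC was 0.33 for C/C against WT (SE 0.13, edgeR adjusted p = 0.165) and 0.36 for C/C against C/+ (SE 0.13, edgeR adjusted p = 0.130). For C/+ against WT it was -0.03, with an interval of -0.29 to 0.22.

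Cldn7, a claudin of the basolateral membrane that is known to bind EpCAM (ENSMUSG00000018569, chromosome 11, 69964779 to 69967885), stood at 133 and 119 CPM in C/C, 103, 98.6 and 78.7 CPM in C/+ and 94.0, 112 and 116 CPM in WT. Both C/C libraries lay above all others, as for Cldn3. For C/C against C/+ the log2FC was 0.43 (SE 0.14), not called by edgeR (adjusted p = 0.0945). It was called by DESeq2 (adjusted p = 0.0451), without the low-count filter in edgeR (adjusted p = 0.0188) and with the sex covariate in edgeR (adjusted p = 0.0188), within a range of 0.0188 to 0.47 over 15 alternatives. The log2FC was 0.23 for C/C against WT (interval -0.07 to 0.54) and -0.20 for C/+ against WT (-0.47 to 0.08).

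Cldn4, a claudin known from mouse lung to increase with injury (ENSMUSG00000047501, chromosome 5, 134945119 to 134946934), was the least abundant, with 100 to 241 counts per library. It stood at 4.38 and 3.60 CPM in C/C, 7.87, 6.16 and 5.88 CPM in C/+ and 3.80, 5.60 and 4.43 CPM in WT. All C/+ libraries lay above all C/C and all WT libraries, and C/C overlapped WT. The log2FC was 0.54 for C/+ against WT (SE 0.22, edgeR adjusted p = 0.199), -0.74 for C/C against C/+ (SE 0.25, edgeR adjusted p = 0.112) and -0.20 for C/C against WT (interval -0.74 to 0.34). The C/C against C/+ interval, -1.28 to -0.19, was the widest of the 10 genes in that comparison.

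Cldn4 and Cldn3 are transcribed away from each other on chromosome 5, with 39279 bases and 0 other genes of the count table between them. Per exon length, Cldn3 was 128 and 191 times the level of Cldn4 in C/C, 58.7, 77.7 and 87.8 times in C/+ and 122, 98.7 and 108 times in WT. The ratio was thus lowest in the 3 C/+ libraries and highest in a C/C library, and the C/+ libraries did not overlap either other group. No test was made of this ratio, which was chosen after the levels were known.

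The remaining tight junction genes encode a scaffold and membrane proteins. Tjp1, which encodes the scaffold ZO-1 that links claudins to actin (ENSMUSG00000030516, chromosome 7, 65296165 to 65527781), stood at 110.3 and 107 CPM in C/C, 135, 130.3 and 130.2 CPM in C/+ and 165, 133 and 135 CPM in WT. Both C/C libraries lay below all others, and C/+ overlapped WT, in which WT 1 was the highest. For C/C against WT the log2FC was -0.41 (SE 0.11), not called by edgeR (adjusted p = 0.0767). It was called by DESeq2 (adjusted p = 0.0149), without the low-count filter in edgeR (adjusted p = 0.0447) and with the sex covariate in edgeR (adjusted p = 0.0330), within a range of 0.0149 to 0.358 over 15 alternatives. The log2FC was -0.28 for C/C against C/+ (SE 0.11, edgeR adjusted p = 0.189) and -0.13 for C/+ against WT (interval -0.35 to 0.09).

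Ocln encodes occludin, a tight junction membrane protein (ENSMUSG00000021638, chromosome 13, 100496507 to 100552718). It stood at 36.3 and 26.6 CPM in C/C, 32.7, 30.5 and 32.3 CPM in C/+ and 31.8, 36.8 and 39.2 CPM in WT, with overlap in each comparison. The C/C libraries were far apart for this gene, and its log2FC of -0.19 for C/C against WT (interval -0.52 to 0.14) and -0.02 for C/C against C/+ (-0.34 to 0.31) rest on them. For C/+ against WT the log2FC was -0.17 (interval -0.47 to 0.12).

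F11r encodes JAM-A, an immunoglobulin-like adhesion protein of tight junctions (ENSMUSG00000038235, chromosome 1, 171437535 to 171464603). It was the most even of the 10, at 261 and 236 CPM in C/C, 249.6, 245 and 216 CPM in C/+ and 230.3, 249.8 and 255 CPM in WT, a span of 1.21 times. Its groups overlapped in each comparison, and its log2FC lay between -0.05 and 0.07, with the widest interval bounds at -0.27 and 0.31.

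**Figure D2:**
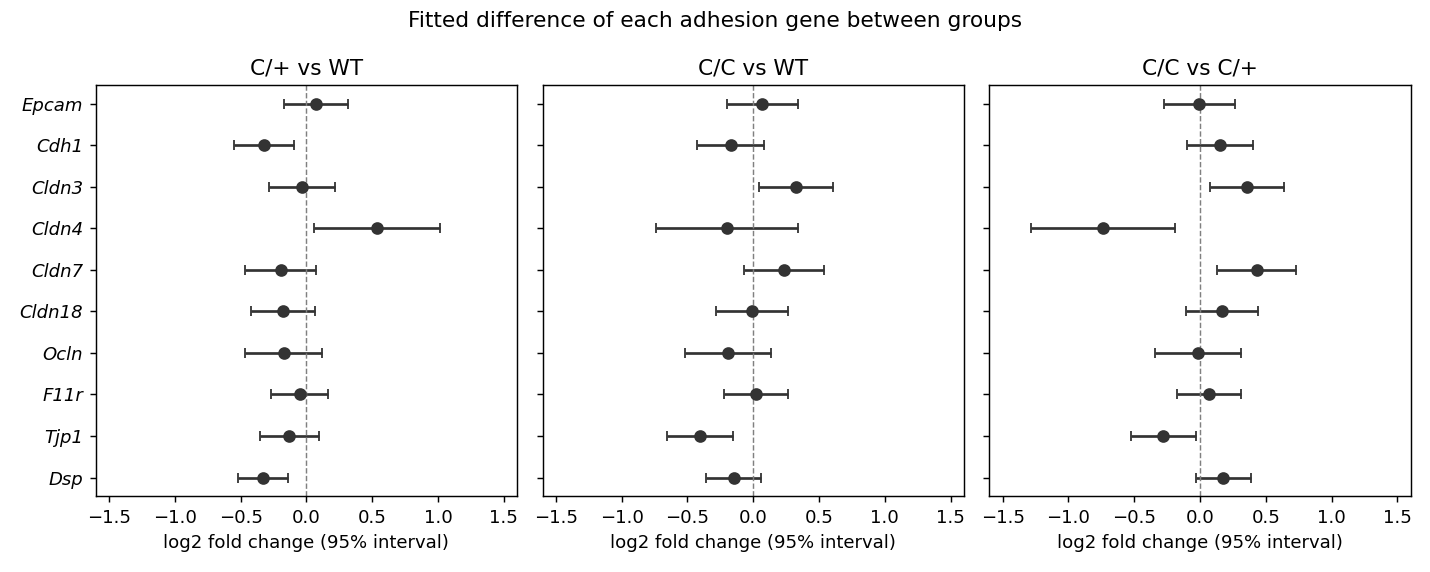
Fitted log2 fold change of each gene (point) with its 95% interval (bar), in 1 panel per comparison, with the first-named group on top of the fold. The dashed line marks 0. The estimates run from -0.74 (Cldn4, C/C vs C/+) to 0.54 (Cldn4, C/+ vs WT), and Epcam lies near 0 in the 3 panels.

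Over the 30 gene-by-comparison tests, 21 of the 95% intervals held 0, and 28 lay wholly within 1 log2 unit of 0. The other 2 intervals were both of Cldn4. The genes that lay apart were not the same in each comparison: Cdh1, Dsp and Cldn4 did not overlap between C/+ and WT, Cdh1, Dsp, Tjp1, Cldn3 and Cldn7 between C/C and WT, and Dsp, Tjp1, Cldn3, Cldn4 and Cldn7 between C/C and C/+. The comparisons share libraries and are not independent of each other. Over the 8 libraries the SD of log2 CPM was 0.12 for Epcam, 0.09 for F11r and 0.38 for Cldn4, with a median of 0.17 over the 10 genes. The median was 0.18 over the 8599 genes that averaged 10 CPM or more.

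Levels were compared between genes only per length, as CPM per kilobase of annotated exon. The order was the same in C/C, C/+ and WT: Cldn3, Cldn18, Cdh1, F11r, Epcam, Cldn7, Tjp1, Dsp, Ocln and Cldn4. Cldn3 averaged 343 ± 49.1 CPM per kb in C/C (n = 2), 267 ± 15.3 in C/+ and 274 ± 26.8 in WT (SD, n = 3 each). Epcam averaged 82.2 ± 2.34 CPM per kb in C/C, 82.5 ± 10.2 in C/+ and 78.3 ± 5.83 in WT. Cldn4 averaged 2.20 ± 0.306 CPM per kb in C/C, 3.65 ± 0.592 in C/+ and 2.54 ± 0.502 in WT. Neighbours in this order whose libraries overlapped were F11r with Epcam and Dsp with Ocln in C/+, and Cldn3 with Cldn18 in WT. In C/C, with 2 libraries, no neighbours overlapped. Cldn3, Cldn18 and Cdh1 stood at or above 98.6% of tested genes in every library, Epcam at or above 97.3%, and Cldn4 at or above 39.9% to 54.8%. The exon length counts all annotated exons of a gene, so a gene with long unused exons is placed too low. Reads from antisense genes could matter for Cldn3, Dsp and Cldn18, since the strand setting of the counting is not given, but Wbscr25, Gm10129 and Gm16004 had at most 0.438%, 0.573% and 0.0129% of the counts of Cldn3, Dsp and Cldn18. For Cldn3 and Dsp the exons overlap those of the antisense gene, and these counts cannot show reads left uncounted there.

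**Figure D3:**
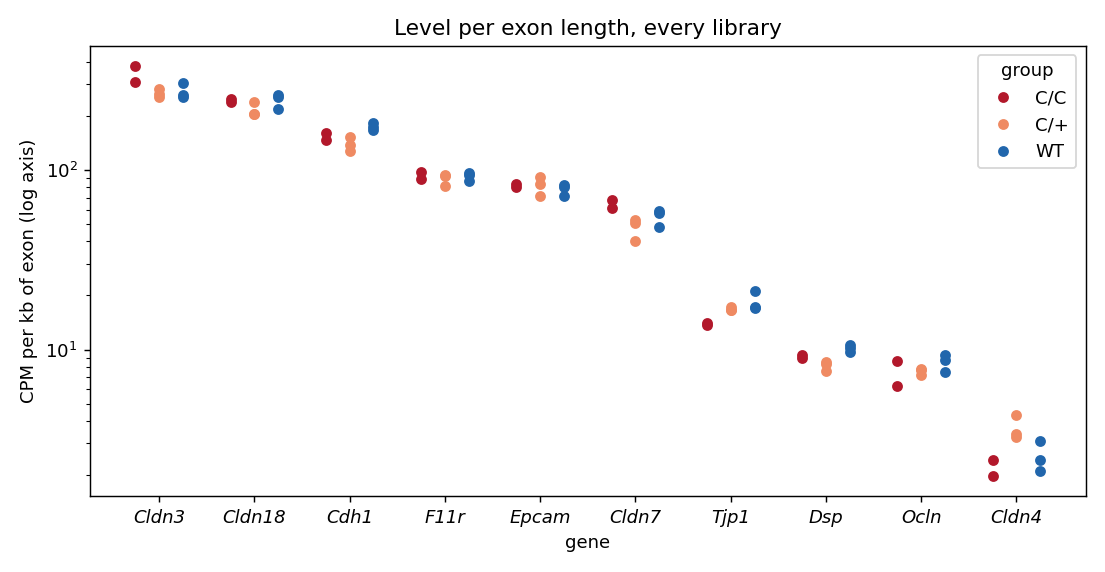
Level of each gene in every library, in TMM-scaled CPM per kilobase of annotated exon on a log axis, with genes in falling order of their mean over 8 libraries. Points are libraries, coloured by group and placed as C/C, C/+ and WT from left to right. Cldn3 is at 254 to 378 CPM per kb and Cldn4 at 1.98 to 4.33 CPM per kb.

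Some junction genes outside the 10 differed far more between the groups. Of 53 other junction genes, 52 were in the table and 46 passed the low-count filter. For C/+ against WT edgeR called 4 higher and 0 lower in C/+ (3.42% and 0.503% of all tested genes), which were Cldn5, Jam2, Cldn10 and Cldn15. The median log2FC of the 46 was -0.18, with 34 below 0 and 12 above, beside a median of 0.01 over all tested genes. For C/C against C/+ edgeR called 0 higher and 5 lower in C/C (1.75% and 5.33% of all tested genes). These were Cldn5, Jam2, Cldn10, Cldn15 and Cdh3, which encodes P-cadherin, and the median log2FC over the 46 was 0.06. Both comparisons use the same C/+ libraries. For C/C against WT edgeR called 1 higher, Perp, which encodes a desmosome-associated membrane protein, and 0 lower in C/C (1.62% and 1.36% of all tested genes), with a median of -0.17. Of the 46, DESeq2 called 9 for C/+ against WT (8.47% of all genes), 8 for C/C against C/+ (10.8%) and 6 for C/C against WT (9.86%). An unadjusted edgeR p under 0.05 was found for 19, 10 and 14 in that order (20.1%, 20.9% and 22.1%). For C/+ against WT 14 lay below all WT libraries and 6 above (10.7% and 14.1%). For C/C against WT these were 16 and 5 (22.6% and 20.8%). For C/C against C/+ 7 lay below all C/+ libraries and 9 above (20.2% and 18.1%).

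Cldn5, the tight junction claudin of endothelium, stood at 2.82 and 1.88 CPM in C/C, 68.4, 71.3 and 31.7 CPM in C/+ and 17.2, 8.30 and 3.70 CPM in WT. All C/+ libraries lay above all others. It was higher in C/+ than in WT (log2FC 2.56, SE 0.48, edgeR adjusted p = 0.0209) and fell in C/C against C/+ (log2FC -4.60, SE 0.64, edgeR adjusted p = 0.0027). Jam2, a junctional adhesion molecule of vessels, had 0.505 and 0.417 CPM in C/C, 11.9, 11.3 and 6.53 CPM in C/+ and 3.13, 0.569 and 0.465 CPM in WT. It too was higher in C/+ than in WT (log2FC 2.82, edgeR adjusted p = 0.0331) and lower in C/C than in C/+ (log2FC -4.42, edgeR adjusted p = 0.00806). The call for C/+ against WT held in 2 of 8 fits that each left out 1 library, with WT 1 or C/+ 3 left out, and was lost in the other 6 (adjusted p up to 0.105). For Cldn5 that call held in 5 of 8, being lost without C/+ 1 (adjusted p = 0.0707), C/+ 2 (0.0734) or WT 2 (0.0869), and its call for C/C against C/+ held in 8 of 8. For Jam2 the call for C/C against C/+ was lost without C/C 1 (adjusted p = 0.103) or C/C 2 (0.0988).

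Cldn10, a claudin known from mouse club cells, stood at 0.229 and 0.834 CPM in C/C, 6.85, 5.97 and 5.47 CPM in C/+ and 0.414, 1.33 and 0.428 CPM in WT. It rose in C/+ against WT (log2FC 3.17, SE 0.53, edgeR adjusted p = 0.0155) and fell in C/C against C/+ (log2FC -3.53, SE 0.63, edgeR adjusted p = 0.00739). The first call was lost without C/+ 1 (adjusted p = 0.0542) or WT 3 (0.0517), and the second without C/C 1 (0.0873). Cldn15, a claudin best known as a cation pore of the intestine, stood at 1.17 and 1.64 CPM in C/C, 9.69, 4.80 and 3.65 CPM in C/+ and 1.16, 1.61 and 1.41 CPM in WT. It rose in C/+ against WT (log2FC 2.13, edgeR adjusted p = 0.0172) and fell in C/C against C/+ (log2FC -2.12, edgeR adjusted p = 0.0145). The first call was lost without C/+ 1 (adjusted p = 0.0565), WT 2 (0.0588) or WT 3 (0.0622), and the second without C/C 1 (0.183) or C/C 2 (0.0894).

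Cdh3 stood at 0.275 and 0.339 CPM in C/C, 1.40, 1.77 and 1.29 CPM in C/+ and 0.724, 0.759 and 1.08 CPM in WT, and the 3 groups did not overlap. It fell in C/C against C/+ (log2FC -2.27, SE 0.48, edgeR adjusted p = 0.0176), a call lost without C/C 1 (adjusted p = 0.189), C/C 2 (0.12) or C/+ 2 (0.0545). Perp stood at 48.1 and 49.2 CPM in C/C, 40.3, 34.5 and 35.9 CPM in C/+ and 30.8, 33.3 and 35.2 CPM in WT, with both C/C libraries above all others. It rose in C/C against WT (log2FC 0.55, SE 0.11, edgeR adjusted p = 0.0340). That call held in 3 of 8 fits that each left out 1 library, and was lost without C/C 1 (adjusted p = 0.239), C/C 2 (0.25), C/+ 2 (0.0548), WT 1 (0.0512) or WT 2 (0.0983).

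Markers of some other cell types were also called in these comparisons. Cldn5 is counted both among the junction genes and on the endothelial marker list. In C/+ against WT edgeR called 11 of 12 tested endothelial and 5 of 6 tested mesothelial markers higher (3.42% of all tested genes). It also called 5 of 10 tested mesenchymal and 5 of 8 tested club markers higher, and no marker of these lists lower (0.503%). In C/C against C/+ it called 11, 6, 6 and 5 markers of the same lists lower and none higher (5.33% and 1.75%). In C/C against WT edgeR called 1 endothelial marker lower and 1 club marker higher (1.36% and 1.62% of all tested genes). DESeq2 called 5, 0, 1 and 3 in the same order of lists (9.86%). The median log2FC was -1.73, -1.29, -0.70 and -0.16 in that order. Below all WT libraries lay 7, 4, 2 and 2 markers (22.6%), and above them 0, 0, 0 and 2 (20.8%). The 11 endothelial markers other than Esam, Cldn5 among them, summed to 53.5 and 43.4 CPM in C/C, 547.5 to 907 CPM in C/+ and 61.7 to 278 CPM in WT. The 6 mesothelial markers in the table summed to 7.07 and 6.05 CPM in C/C, 59.3 to 179.9 CPM in C/+ and 8.01 to 27.5 CPM in WT, and the 11 mesenchymal markers to 14.3 and 19.1 CPM in C/C, 83.6 to 227 CPM in C/+ and 16.8 to 42.7 CPM in WT. The 8 club markers summed to 6508 and 6978 CPM in C/C, 10529 to 15361 CPM in C/+ and 5332 to 6749 CPM in WT. Most of the C/C and WT sums was Cbr2, at 4183 to 5138 CPM over all 8 libraries. Scgb1a1, on the same list, stood at 343 and 549 CPM in C/C, 4482 to 8388 CPM in C/+ and 290 to 823 CPM in WT. The 8 alveolar type 2 markers summed to 242212 and 246459 CPM in C/C, 208131 to 216277 CPM in C/+ and 178490 to 204006 CPM in WT, but most of each sum was Sftpc, the surfactant protein C gene, at 104356 to 166725 CPM. None of the 8 was called by edgeR in any comparison. For C/+ against WT DESeq2 called 1, and 2 had an unadjusted edgeR p under 0.05 (8.47% and 20.1% of all genes). For C/C against WT these counts were 3 and 4 (9.86% and 22.1%), and for C/C against C/+ 0 and 1 (10.8% and 20.9%). In C/C against WT the median log2FC of the 8 was 0.11, with 4 above all WT libraries and 3 below (20.8% and 22.6% of all genes). Abca3, a lipid transporter of lamellar bodies, was among those below, at 2443 and 2795 CPM in C/C and 3405, 3198 and 3292 CPM in WT.

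The 8 ciliated markers summed to 191 and 171 CPM in C/C, 134 to 298 CPM in C/+ and 161 to 241 CPM in WT, and Tppp3, at 82.5 to 189 CPM, made up most of that sum. The list's median log2FC was -1.44 in C/C against WT, where 6 of 8 lay below all WT libraries (22.6% of all genes). EdgeR called 2 lower there (1.36%), and DESeq2 called 4 (9.86%). In C/C against C/+ the median was -1.24, with 5 of 8 below (20.2% of all genes). EdgeR called 1 lower (5.33%), and DESeq2 called 4 (10.8%). In C/+ against WT the median was -0.22. There 0 were called by edgeR (3.92%), 0 by DESeq2 (8.47%) and 0 had an unadjusted p under 0.05 (20.1%). Foxj1, the master transcription factor of motile cilia, stood at 4.36 and 5.13 CPM in C/C, 20.8, 8.72 and 6.53 CPM in C/+ and 16.8, 17.6 and 19.6 CPM in WT. It fell in C/C against WT (log2FC -1.92, SE 0.41, edgeR adjusted p = 0.0392), a call lost without C/C 1 (adjusted p = 0.289), C/C 2 (0.25), C/+ 2 (0.0567), WT 2 (0.0983) or WT 3 (0.0669). In C/+ against WT its log2FC was -0.56 (edgeR adjusted p = 0.391), and without C/+ 1 it was -1.23 and called (adjusted p = 0.0316). Ccdc39, a gene of the ciliary axoneme, fell in C/C against WT (log2FC -1.82, edgeR adjusted p = 0.0354) and against C/+ (log2FC -1.52, edgeR adjusted p = 0.0307). The first of these calls was lost without C/C 1 (adjusted p = 0.251), C/C 2 (0.25), WT 2 (0.0833) or WT 3 (0.0641), and the second without C/C 1 (0.197), C/C 2 (0.217) or C/+ 1 (0.0564).

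The 5 basal markers summed to 0.482 and 0.573 CPM in C/C, 0.765 to 3.88 CPM in C/+ and 0.298 to 1.11 CPM in WT. Trp63, the basal transcription factor p63, had 1 to 8 counts and Krt15 had 8 to 83 counts per library, whereas Krt5, Krt14 and Ngfr were at 0 in some libraries. No endothelial, mesothelial, ciliated or club marker was at 0 in any library. The part of these cell types in the values of the 10 genes was not tested.

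The cadherin of vessels and that of epithelium differed in their spread. Cdh5, which encodes VE-cadherin, stood at 5.69 and 6.99 CPM in C/C, 139.5, 149.7 and 102 CPM in C/+ and 47.2, 18.2 and 8.27 CPM in WT, whereas Cdh1 lay between 585 and 831 CPM in all 8. Cdh5 was higher in C/+ than in WT (log2FC 2.41, SE 0.48, edgeR adjusted p = 0.0254) and lower in C/C than in C/+ (log2FC -4.36, SE 0.63, edgeR adjusted p = 0.00311). The first call was lost without C/+ 1 (adjusted p = 0.0767), C/+ 2 (0.0852) or WT 2 (0.099), and the second without C/C 1 (0.0628). Esam, an adhesion molecule on the endothelial marker list, did not behave like the rest of that list, at 197 and 175 CPM in C/C, 205, 196 and 139 CPM in C/+ and 184, 213 and 201 CPM in WT. Its groups overlapped, with log2FC of -0.15 for C/+ against WT (interval -0.46 to 0.17) and 0.04 for C/C against C/+ (-0.31 to 0.39).

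**Figure D4:**
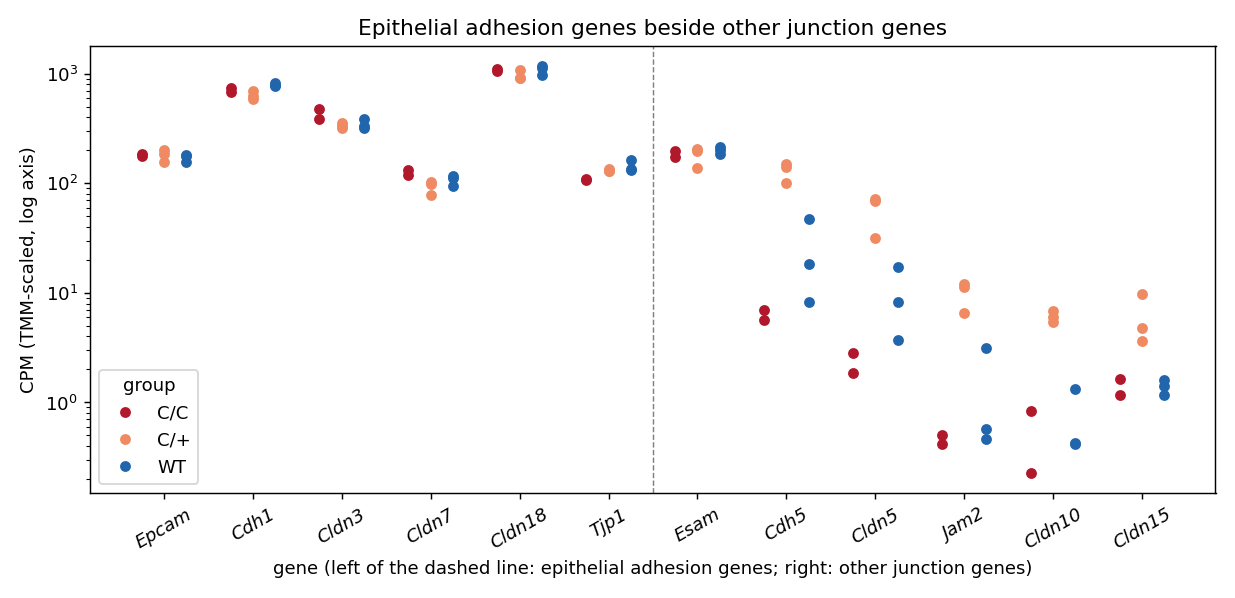
TMM-scaled CPM of 12 junction genes in every library on a log axis, with 6 of the epithelial adhesion genes left of the dashed line and 6 other junction genes right of it. Points are libraries, coloured by group and placed as C/C, C/+ and WT from left to right. Cldn5 spans 1.88 to 71.3 CPM and Cdh5 5.69 to 149.7 CPM, whereas Epcam spans 157 to 202 CPM.

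The genes whose profile over the 8 libraries was most like that of Epcam were Flot2, Fbxo8, 2610301B20Rik, Rap1b and Rab12. Likeness was the root mean square difference of log2 CPM after each gene was centred on its own mean, and it was 0.0352 for Flot2 and 0.0604 for Rab12, over 8 libraries and 8581 genes. Among the other adhesion genes the nearest were Cldn18, at place 1690, and F11r, at place 1814. A gene that varies little, as Epcam did, is near to many others by this measure.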

How the data were processed

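RNA from 8 sorted lung cell samples was sequenced from libraries of a stranded mRNA kit, per the labels' protocols. The deposited values are raw counts of reads per Ensembl gene. The submitters' processing notes name STAR 2.4.2a, DESeq2 and GRCh38, a human build, although the gene IDs are those of mouse; which counter, strand setting and annotation release were used is not given in the sources used here. Symbols, positions and exon lengths were taken from GENCODE M21 on GRCm38, in which 42462 of 43432 IDs matched.

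Counts of 17057216 to 52319957 per library were filtered with edgeR's filterByExpr, scaled by TMM and fitted with edgeR 4.0.16 (quasi-likelihood F test, R 4.3.3) with 1 mean per group over all 8 libraries. P-values were adjusted by Benjamini-Hochberg over 14906 genes, and intervals are the log2FC with its SE times the t quantile for 95%. Alternatives were DESeq2 1.42.0, its size factors in edgeR, other low-count filters, fits of the compared groups alone, sex read from Xist above 10 CPM as a covariate, a replicate block and leaving out each library. Replicates differed by more than counting noise, and none were identical. The 10 genes and the junction and marker lists were chosen with earlier results of these data known. Genes named with values are the 10, up to 6 called other junction genes per comparison with the highest mean CPM, the 5 genes nearest Epcam, Chia1 and Ptprc. Genes named from the marker lists, such as Cdh5, Esam, Foxj1 and Krt8, were picked after their values were seen.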

Additional observations from a re-analysis of the deposited data

How the results depend on the processing

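None of the 10 adhesion genes was called in any comparison by edgeR with DESeq2's size factors, with the filter of 1 CPM, with the compared groups alone, with the replicate block or in any fit that left out 1 library (0 to 0). DESeq2's Wald test called 2, 1 and 1 of the 10 for C/+ against WT, C/C against WT and C/C against C/+, the sex covariate 2, 1 and 1, and no low-count filter 1 and 1 for C/C against WT and C/C against C/+. Of 450 log2FC of the 10 under alternatives, 413 kept direction and side of the threshold, 10 passed it and 27 changed sign, 16 of these without 1 library. Epcam in C/C against C/+ had 0.000346 with DESeq2's size factors, 0.000431 with DESeq2, 0.0111 without a filter, 0.0111 with the compared groups alone, 0.0476 with the replicate block and 0.0319 with the sex covariate. Ocln in C/C against C/+ had 0.000671 with the compared groups alone, 0.0129 with the block and 0.0377 with the sex covariate, and with that covariate Cldn4 had 0.0698 and Cldn18 0.15 in C/C against WT. With 1 library left out, Epcam spanned -0.00838 to 0.16 in C/+ against WT, -0.00727 to 0.11 in C/C against WT and -0.11 to 0.079 in C/C against C/+, and Ocln -0.43 to 0.0161 in C/C against WT and -0.25 to 0.19 in C/C against C/+. Cldn3 spanned -0.0862 to 0.0472 in C/+ against WT, Cldn18 -0.10 to 0.0423 in C/C against WT, and F11r -0.0943 to 0.0133 in C/+ against WT and -0.0508 to 0.0928 in C/C against WT.

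Counts over all genes moved more. The 585 calls of C/+ against WT became 1263 with DESeq2, 1299 without a filter, 356 with the compared groups alone, 1700 with the sex covariate and 103 to 729 with 1 library left out. The 444 calls of C/C against WT became 1470, 1456, 176 with the replicate block, 1348 with the sex covariate and 30 to 782, and the 1056 of C/C against C/+ became 1609, 1614 and 185 to 1308. Of the other junction genes, the 4 calls of C/+ against WT became 9 with DESeq2, 7 without a filter, 2 with the filter of 1 CPM, 11 with the sex covariate and 0 to 7 with 1 library left out. The 1 call of C/C against WT became 6, 5, 3 with the sex covariate and 0 to 2, and the 5 of C/C against C/+ became 8 with DESeq2, 2 with the filter of 1 CPM and 1 to 7. The cause was not tested. Deviations of same-numbered libraries correlated at -0.206 to 0.0870. Libraries with different numbers were not correlated for reference, so these values cannot decide whether samples sharing a number were paired. With 2 C/C libraries, and 100 to 241 counts per library for Cldn4, small differences were not detectable.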

Other observations

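Of 19 markers of epithelium in general, a list that holds Epcam and Cdh1, edgeR called none in C/+ against WT, where 3.92% of all genes were called. In that comparison DESeq2 called 2, against 8.47% of all genes, and 6 had an unadjusted p under 0.05, against 20.1%. In C/C against WT edgeR called 2 higher (1.62% of all genes) and 0 lower, DESeq2 called 5 (9.86%), and 7 had an unadjusted p under 0.05 (22.1%). In C/C against C/+ edgeR called 2 higher (1.75%) and 0 lower, DESeq2 called 6 (10.8%), and 6 had an unadjusted p under 0.05 (20.9%).

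Krt8, a keratin of simple epithelia, stood at 219 and 186 CPM in C/C, 123, 96.5 and 101 CPM in C/+ and 92.7, 115 and 127 CPM in WT, with both C/C libraries above all others. It rose in C/C against WT (log2FC 0.86, edgeR adjusted p = 0.0242) and against C/+ (log2FC 0.92, edgeR adjusted p = 0.00582). The first call was lost without C/C 1 (adjusted p = 0.239), C/C 2 (0.122) or WT 2 (0.0833), and the second without C/C 1 (0.0866). Elf3, an epithelial transcription factor, rose in C/C against WT (log2FC 0.42, edgeR adjusted p = 0.0392) and against C/+ (log2FC 0.38, edgeR adjusted p = 0.0268). For Elf3 the first call held in 2 of 8 fits that each left out 1 library, without C/+ 1 or C/+ 3, and was lost in the other 6 (adjusted p up to 0.28). The second was lost without C/C 1 (adjusted p = 0.22), C/C 2 (0.148), C/+ 1 (0.0708) or C/+ 2 (0.087). Prom1, which encodes the surface protein prominin-1, had the lowest log2FC of the list, at 0.987 and 0.652 CPM in C/C, 5.71, 0.84 and 2.00 CPM in C/+ and 2.95, 3.84 and 4.57 CPM in WT. Its log2FC was -2.20 for C/C against WT (edgeR adjusted p = 0.0908) and -1.82 for C/C against C/+ (edgeR adjusted p = 0.143), and neither was called. Both comparisons use the same 2 C/C libraries.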
